A study of Mus musculus with 9 samples.

Results

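Translation initiation and elongation factors are the proteins that load the ribosome onto mRNA, select the start codon and carry the growing chain forward. Here they were followed at the mRNA level in MLP29 cells, a line of mouse liver progenitor cells, after functional blockade of α5β1 integrin and after stimulation with HGF/SF1, the hepatocyte growth factor that makes these cells scatter. The members were the genes whose symbols begin with Eif1 to Eif6, Eef1 or Eef2, plus the release factor Etf1, leaving out the eIF2 and eEF2 kinases. Each gene was represented by its brightest probe set that names it alone. The rule found 47 of 12393 genes, on 112 of 22626 probe sets. Of the main factors, Eif1, Eif2s1, Eif4g1 and Eef1g had no probe set of their own and were not analysed here.

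Before treatment every culture was kept in 0.1% serum for 16 h or longer. They were then left untreated, or treated for 24 h with HGF/SF1 at 20 ng/ml or with the α5β1 blocking antibody at 10 µg/ml. Each condition was hybridised to 3 Affymetrix Mouse430A_2 arrays, 1 in each of 3 experiments that held every condition once. The study's methods name an IgG antibody among its controls. The titles of the control arrays say only Control, the paper calls these cells untreated, and neither says whether they received the IgG. The addition of an antibody and the blockade of the integrin therefore cannot be told apart. MLP29 is a single line, and the results hold for that line alone. Values are log2 expression levels, and a difference of 1 is a 2-fold change.

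The labelled cell type was checked against its markers. Of 10 hepatic progenitor and biliary markers, 7 were above the array median on every array (Krt8, Krt18, Krt19, Krt7, Cdh1, Cd24a and Met), whereas Epcam was below it on every array. Hnf4a alone of 6 hepatocyte markers was above the median on all arrays, and all 6 fibroblast and stellate markers and 3 of 4 endothelial markers were below it. The leukocyte markers Ptprc, Adgre1, Itgam and Cd3e were below the median throughout. Cd68, a lysosomal protein of macrophages, averaged 5.498 in untreated and 8.09 in antibody-treated cells. The mean level of the 5 measured leukocyte markers was 4.28 to 4.32 on untreated and 4.58 to 5.13 on antibody arrays. Apart from Cd68 the means in untreated and antibody-treated cells were close. They were 3.20 and 3.24 for Ptprc, 4.25 and 4.34 for Adgre1, 3.51 and 3.50 for Itgam, and 5.05 and 5.13 for Cd3e. The part of the Cd68 difference in the results below was not tested.

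As background, initiation begins when eIF2 brings the initiator tRNA to the small ribosomal subunit, helped by eIF1, eIF1A, eIF3 and eIF5. eIF2B recharges eIF2 with GTP. The cap-binding protein eIF4E, the scaffold eIF4G and the helicase eIF4A open the mRNA, and the eIF4E-binding proteins (4E-BPs) hold eIF4E back until they are phosphorylated by mTOR. eEF1A then delivers aminoacyl-tRNAs and eEF2 moves the ribosome along. In the liver, protein synthesis is adjusted to growth factors and amino acids mainly through these control points.

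After α5β1 blockade most factors stayed close to their untreated level, and a small set of initiation factors and regulators differed. The mRNAs of Eif5, Eif1a, Eif4ebp2, Eif2b4, Eef1akmt1 and Eef1d were lower than in untreated cells, and those of Eif2d, Eif4ebp1 and Eif4e3 were higher. These 9 of 47 factors (19.1%) passed an unadjusted p under 0.05 in limma, against 12.6% of all genes. By direction, 3 were higher (6.38%, against 4.68% of genes) and 6 were lower (12.8%, against 7.92%). In bulk RNA, fewer cells with an mRNA and less of it per cell cannot be told apart. No factor passed after Benjamini-Hochberg adjustment over all probe sets, where 0.0403% of genes did. The smallest adjusted p of a factor in limma was 0.196, and 0.0766 with the experiment as a block, where 0.121% of genes passed. No factor reached a 2-fold difference, as 1.9% of genes did. All of these values are for the brightest probe set of each gene, and some dimmer ones, given below, went further. The median log2 difference over the 47 factors was 0.05, and over all genes it was -0.00, and the median size of a difference, in either direction, was 0.15 for factors and 0.14 for genes.

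**Figure D1:**
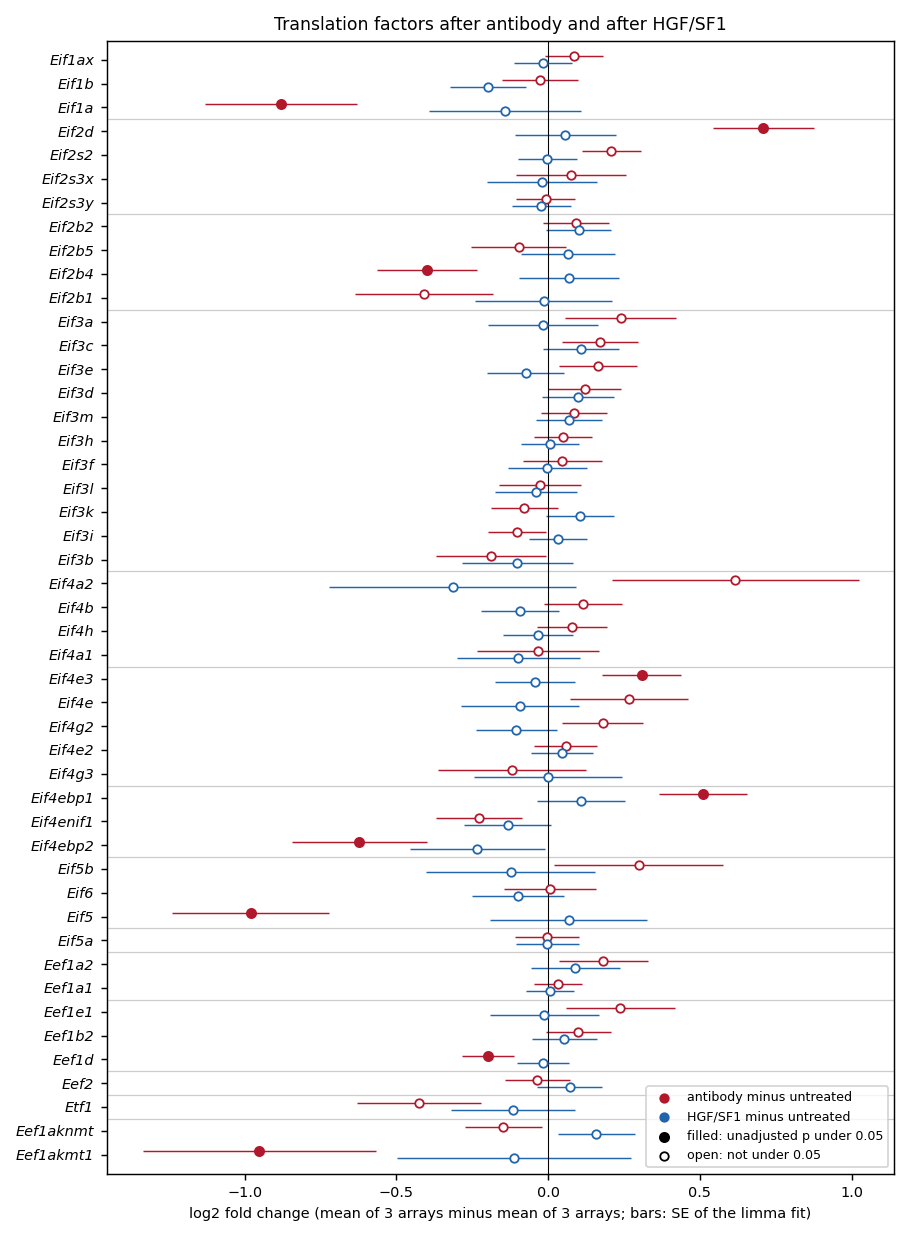
The horizontal axis gives the log2 fold change of each of the 47 factors after antibody (red) and after HGF/SF1 (blue) against untreated cells, ordered by role, with the SE of the limma fit as bars (3 arrays a condition). Filled points, those with an unadjusted p under 0.05, are the 9 factors after antibody and none after HGF/SF1, and the eIF3 subunits lie between -0.19 and 0.24 after antibody.

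HGF/SF1 left the factors near their untreated levels. None of the 47 passed an unadjusted p under 0.05 against untreated cells (0.839% of genes did), and none passed after adjustment, in the limma fit. Differences ran from -0.31 to 0.16 on the log2 scale, and 46 of 47 were within 0.25 of 0. The share of all genes within that limit is not given, so the count cannot be read as particular to the factors. The median size of a difference, in either direction, was 0.07 for factors and 0.09 for all genes. With the experiment as a block, Eif4a2 alone passed, 0.31 lower on the log2 scale (unadjusted p = 0.0412 in limma), where 1.66% of genes did, and with a random block it did not (unadjusted p = 0.314 in limma). These are limits of 3 arrays a condition and not proof of equal levels. The 95% interval of Eif5 after HGF/SF1 ran from -0.52 to 0.66 on the log2 scale, and that of Eif4ebp1 from -0.23 to 0.44.

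In the direct comparison of antibody with HGF/SF1 the untreated means cancel, while the untreated arrays still enter the estimate of the spread. It called 8 of 47 factors (17%) at an unadjusted p under 0.05, against 14.1% of genes. Higher after antibody were 4 factors (8.51%, against 5.19% of genes), Eif2d (0.65), Eif4a2 (0.93), Eif4e3 (0.35) and Eif4ebp1 (0.40), and lower were 4 (8.51%, against 8.96%), Eif5 (-1.05), Eif1a (-0.74), Eif2b4 (-0.47) and Eef1aknmt (-0.31), all as log2 differences. None passed after adjustment (smallest adjusted p = 0.168 in limma), as 0.0242% of genes did. Eef1aknmt was dim, with means of 5.56 after antibody and 5.87 after HGF/SF1, under the array medians of 5.91 to 6.08. Its 3 untreated arrays held the same value, which lowers the spread on which its p rests. When the fit held only the arrays of both conditions compared, Eef1aknmt was not called. With the experiment as a block 13 factors were called (27.7%, against 20.3% of genes), adding Eef1akmt1, Eif2b1, Eif4e, Eif5b and Etf1, and Eif4a2 was the only one past the adjusted threshold (adjusted p = 0.0424 in limma, where 1.13% of genes passed). In the random block, 1 correlation between arrays of an experiment, 0.249, was shared by all probe sets. With it Eif4a2 did not pass the adjusted threshold (unadjusted p = 0.0122 and adjusted p = 0.146 in limma). Where a gene follows the experiment more closely, that fit takes in only part of the pairing, so a miss there decides little.

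Among the factors that select the start codon, Eif1a had the clearest difference. Eif1a encodes a form of eIF1A, which keeps the scanning ribosome open until a start codon is met. Its log2 levels were 10.20, 9.75 and 10.03 in untreated cells of experiments 1, 2 and 3, 9.99, 9.75 and 9.81 after HGF/SF1, and 9.73, 8.75 and 8.86 after antibody. The antibody arrays lay below all untreated arrays, but that of experiment 1 lay only just below the lowest of them. The mean difference was -0.88 (SE 0.25, n = 3 a group, unadjusted p = 0.00741 and adjusted p = 0.236 in limma). That probe set is of a kind that can match several transcripts. The other probe set that names Eif1a alone was 0.69 lower on the log2 scale (SE 0.21, unadjusted p = 0.0108 in limma). A probe set naming Eif1a with other genes was at 0.21 (unadjusted p = 0.248 in limma). Its means were 3.91 in untreated and 4.12 in antibody-treated cells, under the array medians of 5.91 to 6.08. Eif1b was at -0.03. The X-linked Eif1ax was at 0.08 by its brightest probe set, but its dimmer one read 7.21, 7.64 and 7.96 in untreated cells and 6.70, 6.89 and 6.22 after antibody, a log2 difference of -0.998 (SE 0.22, unadjusted p = 0.00161 in limma). The 2 Eif1ax probe sets therefore give different answers, and the mean of both was 0.46 lower on the log2 scale.

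Eif5 had the largest difference of any factor by its brightest probe set. eIF5 makes eIF2 hydrolyse its GTP once the start codon is found. Log2 levels were 10.76, 10.99 and 11.24 in untreated cells, 10.96, 10.96 and 11.28 after HGF/SF1, and 10.64, 9.66 and 9.75 after antibody in experiments 1, 2 and 3. Experiments 2 and 3 carried the difference, with -1.33 and -1.49 within the experiment, and experiment 1 gave -0.12. The groups did not overlap, and the mean difference was -0.98 (SE 0.26, n = 3 a group, unadjusted p = 0.00486 and adjusted p = 0.217 in limma). All 4 Eif5 probe sets were below 0 and 2 of them passed an unadjusted p under 0.05. The companion factor Eif5b, the GTPase that joins the ribosomal subunits, was at 0.30 with overlapping groups (unadjusted p = 0.314 in limma). Within experiments Eif5b gave 0.28, 0.30 and 0.32, and with the experiment as a block it passed (unadjusted p = 0.0107 in limma). With a random block, whose correlation is shared by all probe sets, Eif5b did not pass (unadjusted p = 0.173 in limma). Its 2 dimmer probe sets were called in opposite directions, at 0.46 and -0.43 on the log2 scale, and no other factor had such a conflict. Eif6, which keeps the large subunit from joining early, was at 0.01.

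Eif5 lies on mouse chromosome 12 (GRCm38.p6, chr12:111538101-111546753), Eif2d on chromosome 1 (chr1:131153172-131187659) and Eif4ebp1 on chromosome 8 (chr8:27260327-27275656). Promoter entries of RefSeq (GRCm38.p6) were matched for 36 of 47 factors and for 4 of the 9 called ones. For the 3 of these whose upstream bases lay outside annotated genes, up to 150 bases before the start are printed because their mRNAs differed in opposite directions. Capitals mark the GC box GGGCGG, searched on both strands.
Eif5 (lower; chr12:111537951-111538100, + strand): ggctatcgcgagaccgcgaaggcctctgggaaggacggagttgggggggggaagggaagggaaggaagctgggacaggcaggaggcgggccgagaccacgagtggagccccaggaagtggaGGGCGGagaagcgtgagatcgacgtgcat
Eif2b4 (lower; chr5:31193140-31193261, - strand): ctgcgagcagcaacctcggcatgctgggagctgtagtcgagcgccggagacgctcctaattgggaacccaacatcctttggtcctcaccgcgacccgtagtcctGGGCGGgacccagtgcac
Eif2d (higher; chr1:131153057-131153171, + strand): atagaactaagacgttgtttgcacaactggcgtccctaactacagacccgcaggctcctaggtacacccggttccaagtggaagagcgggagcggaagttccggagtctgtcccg
The GC box was in the 250 bases before the start in 66.7% of 48 promoters of factors and in 32.7% of all 32851 promoters. Eif2d was among them, but its GC box lay outside the bases printed. A match describes the letters and is not a binding site.

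eIF2, the carrier of the initiator tRNA, showed no called subunit, while the alternative carrier Eif2d was higher. eIF2D can place tRNA on the ribosome without eIF2. Its log2 levels were 8.79, 8.97 and 8.67 in untreated cells, 8.75, 9.05 and 8.79 after HGF/SF1, and 9.18, 9.64 and 9.74 after antibody. Every antibody array was above every other array, and the within-experiment differences were 0.39, 0.67 and 1.07. The mean difference was 0.71 (SE 0.17, n = 3 a group, unadjusted p = 0.00252 and adjusted p = 0.196 in limma), which is 1.63-fold. That p was the smallest among the brightest probe sets of the factors. Of the 3 dimmer Eif2d probe sets 2 were at 0.48 and 0.42 and 1 was at -0.15, and none of these 3 passed. The eIF2 beta subunit Eif2s2 read 12.33, 12.26 and 12.36 in untreated cells and 12.49, 12.59 and 12.49 after antibody. Its groups did not overlap, but the difference of 0.21 missed the threshold (unadjusted p = 0.0643 in limma). With the experiment as a block Eif2s2 missed it too (unadjusted p = 0.0799 in limma), whereas with a random block it passed (unadjusted p = 0.047 in limma). All 6 Eif2s2 probe sets were above 0, with 2 dimmer ones past the threshold at 0.39 and 0.40. The gamma subunits Eif2s3x and Eif2s3y were at 0.08 and -0.01. The Y-linked Eif2s3y read between 3.04 and 3.32 on all arrays, far under the array medians of 5.91 to 6.08.

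eIF2B, the exchange factor for eIF2, had 1 of 4 measured subunits called. Eif2b4, the delta subunit, read 8.12, 8.22 and 8.12 in untreated cells, 8.40, 8.12 and 8.14 after HGF/SF1, and 8.12, 7.64 and 7.4998 after antibody. The antibody array of experiment 1 equalled its untreated partner, so the groups met, and the mean difference of -0.40 (SE 0.16, n = 3 a group, unadjusted p = 0.0399 in limma) came from experiments 2 and 3. That same value, 8.11982, also stood on the untreated array of experiment 3 and the HGF/SF1 array of experiment 2. Such repeated values lower the spread on which the p rests. Eif2b1, the alpha subunit, had a similar difference of -0.41 with a wider error (SE 0.23, unadjusted p = 0.106 in limma), and passed with the experiment as a block (unadjusted p = 0.0163). The catalytic subunit Eif2b5 was at -0.10 and Eif2b2 at 0.09.

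eIF3 is the largest initiation complex and the platform on which the others assemble. None of the 11 subunits with a probe set of their own passed, and their log2 differences after antibody ran from -0.19 (Eif3b) to 0.24 (Eif3a), with a median of 0.05. Eif3e was above its untreated levels on all antibody arrays, at 0.16 (unadjusted p = 0.23 in limma). After HGF/SF1 the same subunits ran from -0.10 to 0.11. The probe sets shared by Eif3j1 and Eif3j2 were kept out of these counts, and 1 of them passed lower. A dimmer Eif3c probe set passed after antibody, at 0.30 (unadjusted p = 0.0189 in limma).

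The 2 eIF4E-binding proteins measured, repressors that compete with eIF4G for eIF4E, differed in opposite directions. Eif4ebp1 read 11.56, 11.56 and 11.78 in untreated cells, 11.62, 11.80 and 11.81 after HGF/SF1, and 11.85, 12.33 and 12.25 after antibody. All antibody arrays were above all others, with a mean difference of 0.51 (SE 0.15, n = 3 a group, unadjusted p = 0.00742 and adjusted p = 0.236 in limma). That probe set is of a kind that can match several transcripts, and the next brightest one of the gene was at 0.29 (SE 0.13, unadjusted p = 0.0625 in limma). Eif4ebp2 read 8.75, 8.64 and 8.40 in untreated cells, 8.27, 8.40 and 8.41 after HGF/SF1, and 8.49, 7.90 and 7.53 after antibody. Its antibody array of experiment 1 fell within the untreated range, and the mean difference was -0.62 (SE 0.22, n = 3 a group, unadjusted p = 0.0225 and adjusted p = 0.328 in limma). A second Eif4ebp2 probe set was at -1.18 (SE 0.37, unadjusted p = 0.0115 in limma). Of its 5 probe sets 4 were below 0, 2 of them past the threshold, and 1 was above 0. Eif4enif1, which carries eIF4E into the nucleus, was at -0.23 and did not pass.

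**Figure D2:**
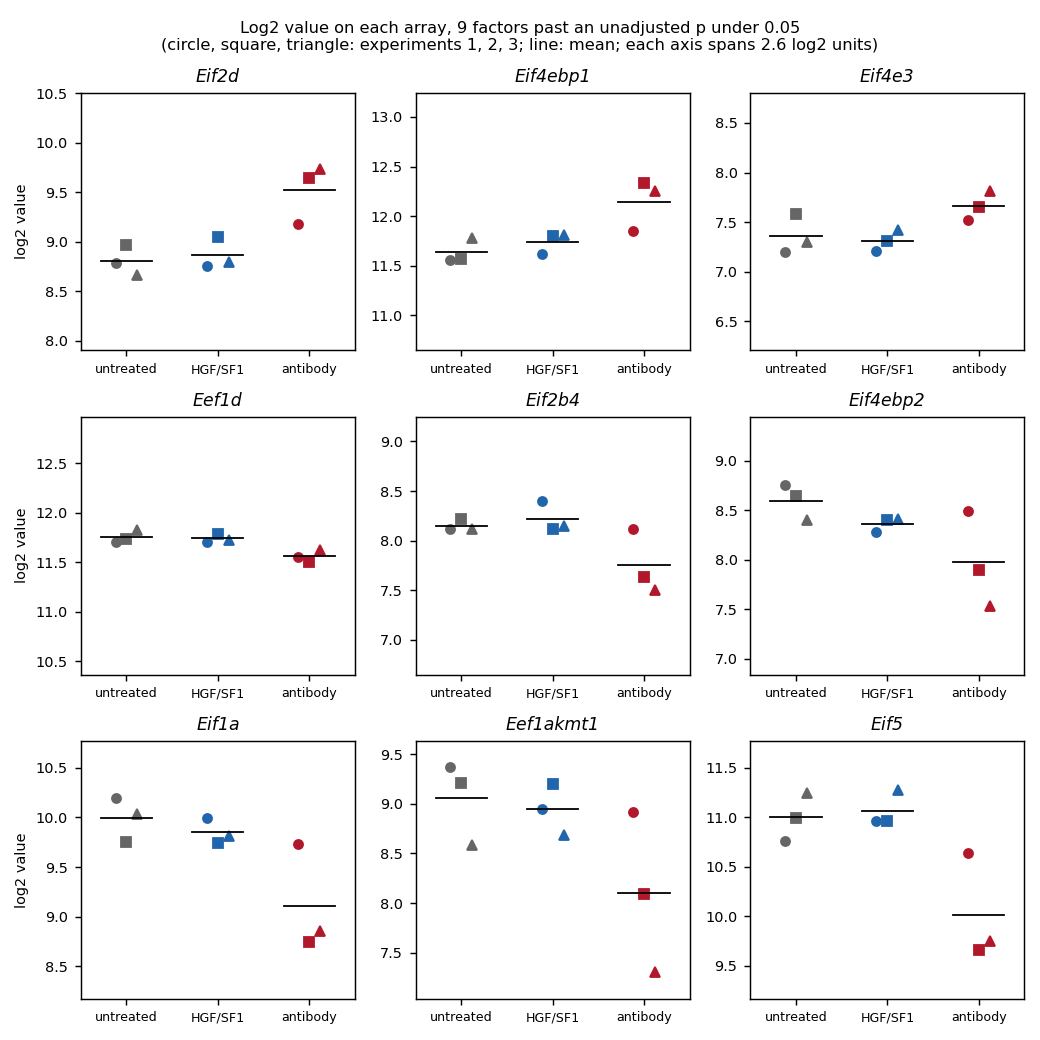
Each panel gives the log2 value of 1 of the 9 called factors on all 9 arrays, with the symbol showing the experiment, the line the mean of 3 arrays, and every axis spanning the same number of log2 units. For Eif5, Eif1a, Eif4ebp2, Eif2b4 and Eef1akmt1 the antibody array of experiment 1 (circle) lies nearest to the untreated arrays.

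Of the cap-binding proteins, Eif4e3 passed. Eif4e3, a weaker cap binder, read 7.19, 7.58 and 7.30 in untreated cells, 7.21, 7.31 and 7.42 after HGF/SF1, and 7.53, 7.65 and 7.82 after antibody. One untreated array lay above the lowest antibody array, and the mean difference was 0.31 (SE 0.13, n = 3 a group, unadjusted p = 0.0458 in limma). Eif4e itself was at 0.27 (SE 0.19, unadjusted p = 0.208 in limma), with 0.65 in experiment 2 and -0.02 in experiment 1. The scaffolds Eif4g2 and Eif4g3 were at 0.18 and -0.12.

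The helicase Eif4a2 varied more between arrays than any other factor. It read 10.74, 11.22 and 11.65 in untreated cells, 10.09, 11.18 and 11.39 after HGF/SF1, and 11.19, 11.9995 and 12.26 after antibody. In every experiment the antibody array was the highest and the HGF/SF1 array the lowest, while the groups overlapped across experiments. Without the block the difference after antibody was 0.62 (SE 0.41, n = 3 a group, unadjusted p = 0.165 in limma), and with the experiment as a block its SE was 0.13 and it passed (unadjusted p = 0.00182, adjusted p = 0.0821 in limma). With a random block, whose correlation of 0.249 is shared by all probe sets, it did not pass (unadjusted p = 0.0671 in limma). Its paralogue Eif4a1 was at -0.03 and the cofactors Eif4b and Eif4h at 0.11 and 0.08.

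**Figure D3:**
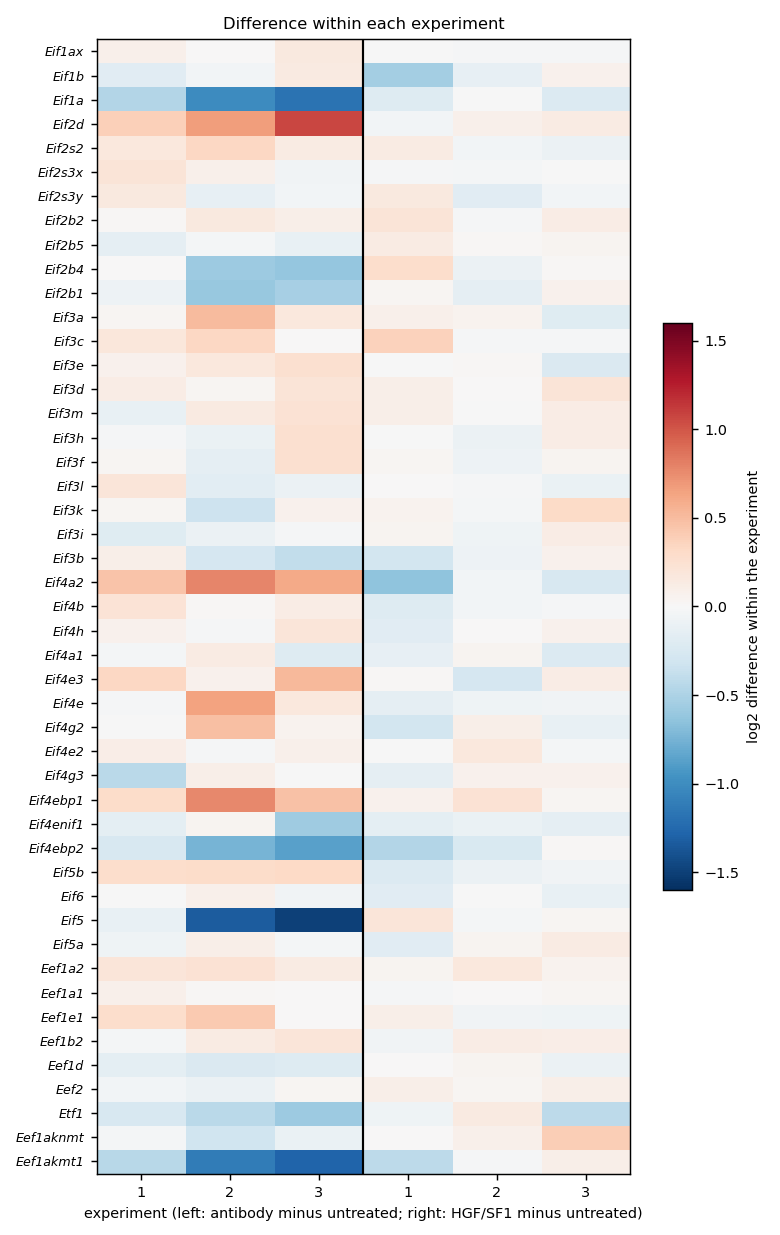
Colour gives the log2 difference from the untreated array of the same experiment for each of the 47 factors (rows, in the order of roles), with antibody in the 3 left columns and HGF/SF1 in the 3 right ones. Eif1a, Eif5 and Eef1akmt1 are below 0 and Eif2d, Eif4a2 and Eif4ebp1 above 0 in all 3 experiments after antibody, and for each of these the difference of experiment 1 is the smallest in size.

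Most elongation factors differed little. Eef1a1, the main carrier of aminoacyl-tRNA, stayed between 14.04 and 14.14 on all 9 arrays and differed by 0.03 after antibody (SE 0.08). The highest value of any probe set on any array was 14.29, so that this gene was read near the top of the scale. Eef2, the translocase, was at -0.04 (SE 0.11), Eif5a, which relieves stalled ribosomes, at -0.00 (SE 0.10), and Eef1b2, an exchange factor for eEF1A, at 0.10 (SE 0.11). Eef1a2 was at 0.18 and Eef1e1 at 0.24, and neither passed. Eef1d, another subunit of the exchange complex, read 11.71, 11.74 and 11.83 in untreated cells and 11.55, 11.51 and 11.62 after antibody. The difference was small and even, -0.20 (SE 0.09, n = 3 a group, unadjusted p = 0.049 in limma), and the groups did not overlap. With the experiment as a block it missed the threshold (unadjusted p = 0.0575 in limma), whereas with a random block it passed (unadjusted p = 0.0312). Of the 3 Eef1d probe sets 2 were below 0, both past the threshold, and 1 was above 0.

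The rule also took in a pair of methyltransferases that modify eEF1A. Eef1akmt1 read 9.37, 9.21 and 8.59 in untreated cells, 8.95, 9.20 and 8.68 after HGF/SF1, and 8.92, 8.09 and 7.30 after antibody. The groups overlapped because levels differed between experiments, and the within-experiment differences were -0.45, -1.12 and -1.29. The mean difference was -0.95 (SE 0.39, n = 3 a group, unadjusted p = 0.0374 in limma), and a second probe set gave -0.96 (SE 0.27, unadjusted p = 0.00644). The other 2 of its 4 probe sets did not pass, at -0.08 (unadjusted p = 0.781) and -0.49 (unadjusted p = 0.148), and the mean of all 4 did not pass either. Eef1aknmt was at -0.15 after antibody and 0.16 after HGF/SF1, and its 3 untreated arrays held the same value, 5.71. The release factor Etf1, which ends translation at stop codons, was at -0.42 by its brightest probe set (SE 0.20, unadjusted p = 0.0693 in limma). It was below 0 in all 3 experiments, and passed with the experiment as a block (unadjusted p = 0.0143). Of the 5 Etf1 probe sets, however, 3 were above 0 and 2 below, and none passed without the block.

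Taking signs alone, 16 of 47 factors (34%) were higher than their untreated partner in all 3 experiments after antibody, against 18.4% of genes, and 10 (21.3%) were lower, against 18.9%. Groups did not overlap for 5 factors that were higher (10.6%, against 6.21% of genes) and for 4 that were lower (8.51%, against 8.8%). The block called 12 factors in place of 9 (25.5%, against 18.5% of genes), adding Eif2b1, Eif4a2, Eif5b and Etf1 and losing Eef1d. Leaving out single arrays changed the number more. It was 4 without the untreated array of experiment 1 (9.61% of genes), 4 without the antibody array of experiment 2 (7.4%) and 4 without that of experiment 3 (9.41%). It was 3 without the whole of experiment 2 (3.89%) and 3 without experiment 3 (6.8%). Without the antibody array of experiment 1 it was 11 (18.7% of genes), and 6 of them passed the adjusted threshold in limma, Eif1a, Eif2b4, Eif2d, Eif4ebp1, Eif4ebp2 and Eif5, as 5.08% of genes did. Without the whole of experiment 1 it was 9, and only 2 of them passed the adjusted threshold in limma, Eif1a and Eif5. The share of all genes in that fit is not given.

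Probe sets of the same gene often differed. Of the 28 factors with 2 or more probe sets, 16 had all of them on the same side of 0 after antibody. Over all 112 probe sets 7 were higher and 14 lower at an unadjusted p under 0.05 after antibody, against 11.8% of all probe sets, and 0 after HGF/SF1, against 0.849%. Through a dimmer probe set alone 5 of these 28 factors were called, namely Eif1ax, Eif2s2, Eif3c, Eif4e2 and Eif5b, as were 9.52% of all genes with 2 or more probe sets and 3.81% of all genes. The Eif4e2 one, a repressive cap binder, was at -0.64 (unadjusted p = 0.0131 in limma) while its brightest was at 0.06.

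**Figure D4:**
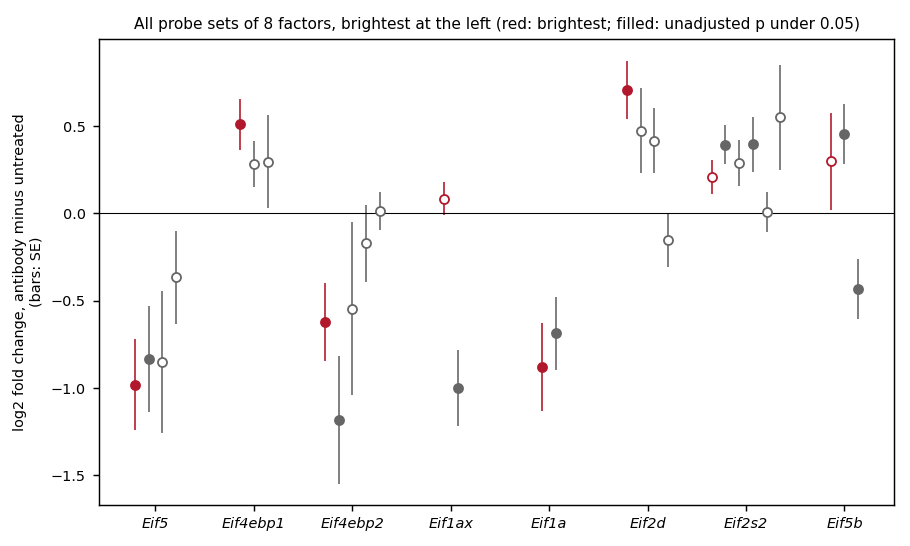
The vertical axis gives the log2 fold change of antibody against untreated cells for every probe set of 8 factors, brightest at the left and in red, with the SE as bars and filled points at an unadjusted p under 0.05. All 4 Eif5 and all 6 Eif2s2 probe sets lie on 1 side of 0, whereas those of Eif1ax and Eif5b lie on both.

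The enzymes and signals that act on these factors were described from 3 lists, to be read against the 4.68% of all genes that were called higher and the 7.92% called lower after antibody. Of 13 measured kinases, phosphatase subunits and response genes of the eIF2 and eEF2 pathway, 0 were higher and 3 lower after antibody. These were Eif2ak3 (PERK, the eIF2 kinase of the endoplasmic reticulum), Ppp1r15b, which guides the eIF2 phosphatase, and Eif2ak1, the haem-regulated kinase. Eif2ak3 read 8.88, 9.07 and 9.004 in untreated cells, 9.63, 8.93 and 8.90 after HGF/SF1, and 8.16, 8.11 and 7.78 after antibody. All antibody arrays were below all others, at -0.97 (SE 0.20, unadjusted p = 0.0012 and adjusted p = 0.175 in limma). Ppp1r15b was at -0.63 (unadjusted p = 0.0114) and Eif2ak1 at -0.42 (unadjusted p = 0.0308). With the experiment as a block Eef2k and Eif2ak2 (PKR) passed too, so that 5 of the 13 were lower, where 18.5% of all genes were called in either direction. Atf4, Ddit3 and Trib3, genes of the response to eIF2 phosphorylation, were at 0.08, 0.51 and 0.30 and did not pass.

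Of 16 measured genes that signal from mTOR and MAPK to eIF4F, 1 was higher and 3 were lower. Ddit4 (REDD1), an inhibitor of mTOR, read 7.25, 5.99 and 8.14 in untreated cells, 8.47, 6.41 and 8.14 after HGF/SF1, and 8.95, 8.24 and 10.47 after antibody. Every antibody array was above every untreated array, at a log2 difference of 2.09 (SE 0.77, unadjusted p = 0.0252 and adjusted p = 0.339 in limma). The p38 kinase Mapk14 was at -0.58 (unadjusted p = 0.0142), the eIF4E kinase Mknk1 at -0.50 (unadjusted p = 0.0316) and Tsc2, which restrains mTOR, at -0.37 (unadjusted p = 0.0469). With the experiment as a block Tsc2 missed the threshold (unadjusted p = 0.0632 in limma) and Pdcd4, an inhibitor of eIF4A, passed at -0.74 (unadjusted p = 0.019). Of 24 measured partner, recycling and modifying proteins, 1 was higher and 4 lower. Mcts1, which together with its partner Denr resembles eIF2D, was at 0.54 (unadjusted p = 0.0272), and the helicase Ddx3x (-0.40, unadjusted p = 0.0129), Dph2 of diphthamide synthesis (-0.71, unadjusted p = 0.0225) and Paip1 (-0.58, unadjusted p = 0.0401) were among the lower ones, all in limma. After HGF/SF1 no gene of the 3 lists passed an unadjusted p under 0.05, and with the experiment as a block Paip1 alone did, at -0.48 (unadjusted p = 0.0123 in limma).

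Many mRNAs of the translation machinery begin with a 5′ terminal oligopyrimidine tract, a C followed by pyrimidines, through which mTOR controls their use. At the RefSeq starts 2 of 48 promoters of factors (4.17%) had C followed by at least 4 pyrimidines, against 2.51% of all promoters. Only the exact annotated start was read, so a tract that begins a few bases away was missed. Promoters were matched for 36 of 47 factors, and the count does not tell how many factors carry such a tract. They are printed with the tract in capitals, from 10 bases before the start to 20 from it.
Eif3f (chr7:108934405-108934434, + strand): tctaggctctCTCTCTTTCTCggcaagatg
Eif2s3x (chrX:94212632-94212661, - strand): gagcattttcCTTTTCTCTCCgagcaagat
Both factors were within 0.10 of 0 after antibody, at 0.05 and 0.08. The E-box CACGTG was in the 250 bases before the start of 22.9% of the promoters of factors, in 9 genes, and of 6.02% of all promoters. It is shown in capitals for 2 factors whose mean differences after antibody were near 0.
Eef2 (chr10:81176571-81176610, + strand): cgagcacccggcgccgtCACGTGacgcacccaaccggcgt
Eif4a1 (chr11:69672590-69672629, - strand): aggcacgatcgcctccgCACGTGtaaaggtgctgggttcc
The ETS core CCGGAAG, searched on both strands, was in 18.8% of promoters of factors and 6.91% of all. The CRE TGACGTCA was in 0 of 48 and in 1.55% of all.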

How the data were processed

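The deposited values are log2 levels, 1 per probe set, which the authors made from all 9 arrays in affylmGUI after a background correction by rma. The normalization between arrays and the summary per probe set are not given in the sources used here, and the values were used as deposited. Of 22690 probe sets, 64 control probe sets were left out. Of the rest, 20380 named 1 gene, 691 several and 1555 none, by the platform annotation with symbols updated to RefSeq. The table held 0 columns of other series.

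Conditions and experiments were taken from the titles, which carry each of 3 experiments once per condition. The residuals from the condition means bore on this pairing. Their correlation lay between 0.0958 and 0.591 for 2 arrays of the same experiment and between -0.484 and 0.0308 for arrays that differed in both experiment and condition. Over the 47 factors alone it lay between 0.448 and 0.747 for arrays of the same experiment. The main fit leaves this pairing out, and the block takes it in. One model with a mean per condition was fitted to all 9 arrays in limma 3.58.1 (R 4.3.3), two-sided, with 6 residual degrees of freedom. P-values were adjusted over 22626 probe sets by the Benjamini-Hochberg method. The paper describes 3 independent experiments. The fit was tested on simulated data with independent arrays and no difference between experiments. That test does not bear on the pairing of the real arrays.

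The factors named were a fixed set of main members, all past an unadjusted p under 0.05 in any comparison, those with probe sets called in opposite directions, and up to 4 genes per list by p. Eif3c, Eif4e2, Eif2b1, Atf4, Ddit3, Trib3 and other genes outside that rule were named after their values were seen, to describe their group. The members and lists were chosen with earlier results of these data known. Alternatives covered the experiment as a fixed or random block, scaling, dim probe sets, the choice of probe set, the arrays in the fit, the variance trend and left-out arrays. Intensity files were not used. The number of arrays limits the precision.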

Additional observations from a re-analysis of the deposited data

How the results depend on the processing

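With 3 arrays a condition, calls at an unadjusted p moved with single arrays. For antibody against untreated, 9 factors were called (12.6% of genes), 5 when the fit held only the arrays of both conditions compared, and 0 at the adjusted threshold (0.0403%). The number was 3 to 11 when an array or experiment was left out, with 3 without experiment 2 (3.89% of genes) and 3 without experiment 3 (6.8%). Against HGF/SF1, 8 were called (14.1% of genes), 13 with the replicate block (20.3%), and 0 at the adjusted threshold (0.0242%). With arrays left out it was 1 to 14, with 1 without experiment 3, and 2 without experiment 2 or without the antibody array of either. It was 5 when HGF/SF1 of experiment 1 was left out and 14 when antibody of experiment 1 was. For arrays left out of this comparison, and for the fit of both conditions alone, the share of all genes is not given. Those counts cannot be read as particular to the factors. For HGF/SF1 against untreated, the replicate block called 1 (1.66% of genes) in place of 0 (0.839%). The block changed no call of a factor beyond those given above.

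The median log2 difference over factors after antibody was 0.10 with arrays centred on their medians, 0.0068 after quantile normalization, 0.0055 with the mean of all probe sets, 0.0203 without probe sets ending in _x_at or _s_at, and 0.0095 to 0.0688 with arrays left out. After HGF/SF1 it was 0.0172 with centring and -0.0402 to 0.0280 with arrays left out. For antibody against HGF/SF1 it was 0.0507 with centring, 0.0430 for bright probe sets only, 0.0423 without _x_at or _s_at probe sets, and 0.0025 to 0.0746 with arrays left out. Eif1ax turned to -0.46 against untreated and -0.49 against HGF/SF1 with the mean of its probe sets, of which the dimmer is lower. Over 21 alternatives against untreated, Eif1a and Eif2d kept direction and call in 20 each, Eif5 in 19, Eif4ebp1 in 18, Eif4ebp2 in 15, Eef1akmt1 in 13, Eif4e3 in 8, Eif2b4 in 7 and Eef1d in 3, and none of the 9 reversed. Against HGF/SF1, Eif5 kept them in 20, Eif2d in 19, Eif1a and Eif2b4 in 16 each, Eif4ebp1 in 14, Eif4e3 in 13 and Eif4a2 in 11. Eef1aknmt kept them in 9 of 20. Eif4ebp1 was not called there with the mean of its probe sets or without probe sets ending in _x_at or _s_at.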

Other observations

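Probe sets that name a factor together with another gene were kept out of the counts. After antibody that with Eif4a3 was at -0.05, that with Eef1g at 0.08 and that with Eif1a at 0.21, and none of these passed. Those shared by Eif3j1 and Eif3j2, 2 copies of the same eIF3 subunit, were at -0.38, -0.33 and -0.25 after antibody on the log2 scale, each below 0 in 3 of 3 experiments, as were 18.9% of all genes. The first of these passed (SE 0.12, unadjusted p = 0.0152 and adjusted p = 0.289 in limma), and its antibody arrays lay below its untreated ones.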
